A study of Rattus norvegicus with 18 samples.

Results

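The mast cell genes described here are a list of 10, Mcpt1, Mcpt2, Cma1, Cpa3, Tpsb2, Tpsab1, Ms4a2, Fcer1a, Kit and Hdc, selected on their levels in these same libraries and found by symbol. The deposited RPE/choroid tables name 9 of them among 16680 named identifiers, and Mcpt2 is not named there. The retina table with symbols lists 10 of 10 among 28111 symbols. The libraries are bulk RNA-seq of neural retina and of RPE/choroid, the pigment epithelium and the vascular layer behind it, from wild-type female Fischer 344 rats. In each tissue there were 3 young libraries from untreated rats of 4 months, 3 aged libraries from untreated rats of 24 months, and 3 8-AG libraries from rats of 24 months. The 8-AG rats drank 8-aminoguanine, an endogenous purine that inhibits purine nucleoside phosphorylase, at 5 mg/kg/day for 8 weeks from 22 months of age. The purpose was to ask what age changes and what 8-AG changes in aged eyes, so the comparisons are aged against young and 8-AG against aged. Both comparisons use the same aged libraries. Several RPE/choroid libraries carry the same number with L or R in their labels (young replicates 1 and 2, and aged replicates 1 and 2), and it is not stated whether these were both eyes of a single rat. Otherwise nothing says that libraries came from separate rats, so the P values below measure only the spread between libraries.

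Mast cells live in the choroid beside its vessels and are not a usual cell of the neural retina. They store histamine, heparin and proteases in granules and empty them when an antigen crosslinks IgE on their surface. The proteases are of 3 kinds, chymases (Mcpt1, Mcpt2 and Cma1), tryptases that cut after basic residues (Tpsb2 and Tpsab1) and carboxypeptidase A3 (Cpa3). The high-affinity IgE receptor is built from the IgE-binding alpha chain (Fcer1a), a beta chain that amplifies the signal (Ms4a2) and a gamma chain shared with other Fc receptors. Kit is the receptor for stem cell factor, on which mast cells depend, and melanocytes carry it too. Hdc makes histamine from histidine.

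The sequences just before the start of these genes are shown because most of the protease genes moved together between libraries while Kit and Fcer1a did not. RefSeq, on build GRCr8, matched 8 of the 10 members. The 250 bases before the start are printed for 5 proteases and Fcer1a, and for Mcpt1l1, a chymase gene near Mcpt1 that is not a member and whose levels were the most like theirs. Capitals mark the letters GATAA, the core of the site that GATA factors of blood cells bind, and TATAAA, the TATA box, each searched on both strands (TTATC and TTTATA are the reverse complements). The positions on GRCr8 are chr15:33841356-33841605 (plus strand), chr15:33876896-33877145 (minus), chr15:33390134-33390383 (minus), chr2:104673238-104673487 (minus), chr10:14886060-14886309 (plus), chr10:14867303-14867552 (minus) and chr13:88224680-88224929 (minus).
Mcpt1: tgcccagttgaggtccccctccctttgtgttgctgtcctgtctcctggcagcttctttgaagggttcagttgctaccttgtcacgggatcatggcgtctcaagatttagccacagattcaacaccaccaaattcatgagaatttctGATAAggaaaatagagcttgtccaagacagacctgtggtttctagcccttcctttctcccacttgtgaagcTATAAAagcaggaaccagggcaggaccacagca
Mcpt1l1: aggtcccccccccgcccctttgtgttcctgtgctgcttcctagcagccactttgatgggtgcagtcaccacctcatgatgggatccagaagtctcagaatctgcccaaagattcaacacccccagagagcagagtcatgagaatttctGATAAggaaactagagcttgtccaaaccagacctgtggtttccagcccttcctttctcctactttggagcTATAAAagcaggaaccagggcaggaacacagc
Cma1: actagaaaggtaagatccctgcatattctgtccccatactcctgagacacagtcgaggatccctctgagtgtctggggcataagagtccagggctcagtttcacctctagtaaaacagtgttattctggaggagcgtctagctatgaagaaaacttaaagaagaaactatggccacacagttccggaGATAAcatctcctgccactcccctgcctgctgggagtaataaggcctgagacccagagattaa
Cpa3: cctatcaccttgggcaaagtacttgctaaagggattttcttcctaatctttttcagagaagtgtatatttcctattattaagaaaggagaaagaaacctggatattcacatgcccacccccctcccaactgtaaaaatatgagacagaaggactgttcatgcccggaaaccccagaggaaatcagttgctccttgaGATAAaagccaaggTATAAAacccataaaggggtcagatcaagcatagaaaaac
Tpsb2: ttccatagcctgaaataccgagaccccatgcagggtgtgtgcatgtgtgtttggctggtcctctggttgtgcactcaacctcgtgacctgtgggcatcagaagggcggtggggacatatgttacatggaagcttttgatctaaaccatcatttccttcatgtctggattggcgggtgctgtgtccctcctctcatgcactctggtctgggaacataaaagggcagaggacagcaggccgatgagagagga
Tpsab1: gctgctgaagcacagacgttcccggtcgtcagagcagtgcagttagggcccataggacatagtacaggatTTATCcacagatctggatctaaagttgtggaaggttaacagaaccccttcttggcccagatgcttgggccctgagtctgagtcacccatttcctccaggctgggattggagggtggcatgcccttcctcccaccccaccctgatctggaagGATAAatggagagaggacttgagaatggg
Fcer1a: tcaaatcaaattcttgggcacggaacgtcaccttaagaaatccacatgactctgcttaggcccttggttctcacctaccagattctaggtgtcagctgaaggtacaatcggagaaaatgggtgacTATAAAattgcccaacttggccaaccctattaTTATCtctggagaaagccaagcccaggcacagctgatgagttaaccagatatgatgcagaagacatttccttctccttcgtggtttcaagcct
GATAA was found before 5 of the 8 matched members (Mcpt1, Cma1, Cpa3, Tpsab1 and Fcer1a) and before 23.5% of all 33469 genes in the same window. TATAAA was found before 3 of the 8 (Mcpt1, Cpa3 and Fcer1a) and before 12.9% of all genes. Tpsb2, Kit and Hdc held neither. Mcpt1 and Mcpt1l1 shared an identical run of 28 bases, from 36 to 9 bases before the start of Mcpt1, that includes the TATAAA. A match of letters describes the window and is not evidence that a factor binds there.

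Library totals were 12283425 to 15644317 counts in retina and 28573828 to 48203050 counts in RPE/choroid. CPM, used for RPE/choroid, is the count relative to the library's total with TMM scaling, which corrects for a few abundant genes taking up a library. Retina levels of the members are the authors' TMM-normalized values, and those of other genes are CPM with TMM scaling computed here from the deposited expected counts. The RPE/choroid libraries differed widely in the tissue they held. The summed level of 8 rod photoreceptor genes ran from 569 to 6332 CPM in young, 196 to 5217 CPM in aged and 274 to 16460 CPM in 8-AG libraries. 8-AG replicate 1 stood apart from the other RPE/choroid libraries, with 28841 CPM summed over 4 striated muscle genes, 1755 CPM over 5 surface keratins, 764 CPM over 6 melanocyte genes and 585.8 CPM over 6 endothelial genes, where the other libraries held at least 6374 CPM of the melanocyte genes and 3065 CPM of the endothelial genes. Young replicate 2 held 446.7 CPM over 5 lens genes, where the other libraries held 15.3 to 135.9 CPM, and 8-AG replicate 3 held 265 CPM of the surface keratins, where the 7 libraries other than 8-AG replicates 1 and 3 held 3.64 to 14.3 CPM. Members' differences for 8-AG against aged are given with and without 8-AG replicate 1.

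The chymase Mcpt1 (ENSRNOG00000020625) was the member whose groups stood furthest apart in RPE/choroid. It stood at 0.1003, 0.0270 and 0.273 CPM in the young libraries, at 0.710, 1.57 and 1.04 CPM in the aged libraries, and at 0, 0.111 and 0.0439 CPM in the 8-AG libraries. Every aged library was above every young and every 8-AG library. These levels rest on 3, 1 and 13 counts in young, 22, 53 and 31 counts in aged, and 0, 4 and 2 counts in 8-AG libraries, and the count of 0 allows a level of up to 0.0917 CPM. The log2 fold change was 2.97 (SE 0.79) for aged against young and -4.31 (SE 0.98) for 8-AG against aged, and -3.81 without 8-AG replicate 1. Mcpt1 passed the limit on low counts through the aged group, where its counts were highest, so it had to differ to be tested. The name is uncertain, because RefSeq gives Mcpt1 among the synonyms of Mcpt1l1, and reads of such near-identical chymases may have been divided between them.

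The other chymase, Cma1 (ENSRNOG00000020563), followed a different order across the libraries. It stood at 1.34, 5.02 and 2.06 CPM in young, 4.55, 11.2 and 2.42 CPM in aged, and 3.15, 2.48 and 0.351 CPM in 8-AG libraries. The groups overlapped in both comparisons, with aged replicate 3 among the young values and 8-AG replicates 1 and 2 above it. The log2 fold change was 1.11 (SE 0.73) for aged against young, and 0.31 to 1.82 with any one library left out. For 8-AG against aged it was -1.57 (SE 0.96), with -2.10 without 8-AG replicate 1 and -0.77 without aged replicate 2 as the ends of the range with any one library left out.

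Carboxypeptidase A3, encoded by Cpa3 (ENSRNOG00000011181), is stored in granules bound to heparin. Its level was 0.802, 4.24 and 1.39 CPM in young, 3.94, 7.56 and 1.21 CPM in aged, and 1.44, 1.08 and 0.219 CPM in 8-AG libraries. Young replicate 2 and aged replicates 1 and 2 were high, and aged replicate 3 lay within the 8-AG range. The log2 fold change was 0.98 (SE 0.86) for aged against young, and 0.27 to 1.93 with any one library left out. For 8-AG against aged it was -2.17 (SE 0.96), and the range with any one library left out went from -2.71 without 8-AG replicate 1 to -1.46 without aged replicate 2.

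The tryptases, stored as active tetramers with heparin, had a like order of libraries. Tpsb2 (ENSRNOG00000018611) stood at 2.11, 8.23 and 1.79 CPM in young, 7.59, 10.5 and 1.17 CPM in aged, and 1.93, 1.86 and 0.505 CPM in 8-AG libraries. Tpsab1 (ENSRNOG00000024181) stood at 1.47, 7.31 and 2.38 CPM in young, 10.01, 9.69 and 1.01 CPM in aged, and 1.13, 1.97 and 1.03 CPM in 8-AG libraries. For both genes young replicate 2 was far above the other young libraries and aged replicate 3 far below the other aged libraries, at a level near those of the 8-AG libraries. The log2 fold changes for aged against young were 0.67 (SE 0.94) for Tpsb2 and 0.90 (SE 0.97) for Tpsab1, with ranges of 0.12 to 1.71 and 0.51 to 1.84 when any one library was left out. For 8-AG against aged they were -2.13 (SE 0.95) for Tpsb2 and -2.30 (SE 0.89) for Tpsab1, and -2.44 and -2.20 without 8-AG replicate 1. With any one library left out they ran from -2.62 to -1.58 for Tpsb2 and from -2.81 to -1.95 for Tpsab1. The reads of these neighbouring tryptase genes on chromosome 10 may also have been divided between them.

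Summed over the 5 proteases, the level was 12.8 ± 10.4 CPM in young, 24.7 ± 16.9 CPM in aged and 5.77 ± 3.13 CPM in 8-AG libraries (SD, n = 3 each). The single libraries held 5.82, 24.8 and 7.89 CPM in young, 26.8, 40.5 and 6.85 CPM in aged, and 7.64, 7.51 and 2.15 CPM in 8-AG rats. The spread among the aged libraries was wide, and aged replicate 3 held less than 8-AG replicates 1 and 2. In bulk tissue, fewer mast cells and less RNA per cell cannot be told apart.

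**Figure D1:**
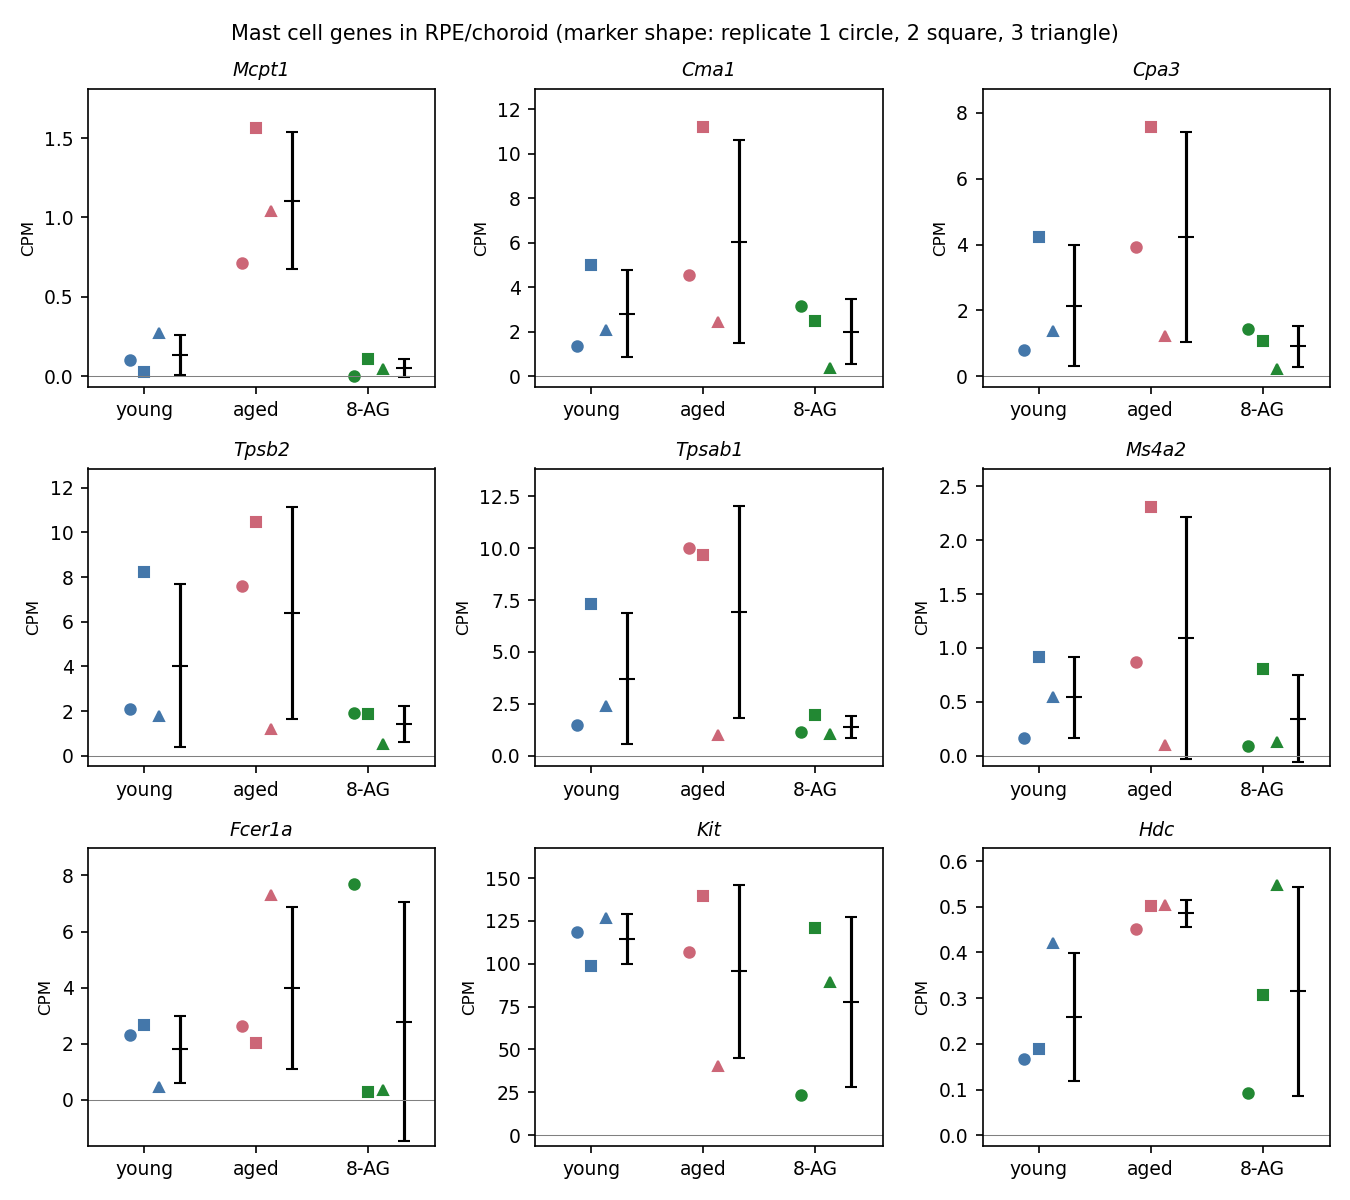
Levels of the 9 members named in RPE/choroid, in CPM after TMM scaling, for 3 young, 3 aged and 3 8-AG libraries (points, with marker shape for the replicate) and mean with SD (black). For Mcpt1 the aged libraries (0.710 to 1.57 CPM) lie above all others, while the groups of the other proteases overlap.

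The IgE receptor chains did not move as a unit. Ms4a2 (ENSRNOG00000020993), the beta chain, stood at 0.167, 0.918 and 0.547 CPM in young, 0.872, 2.30 and 0.101 CPM in aged, and 0.0917, 0.807 and 0.132 CPM in 8-AG libraries. Its log2 fold change was 0.998 (SE 1.08) for aged against young, which became -0.16 without aged replicate 2, and -1.66 (SE 1.29) for 8-AG against aged, which ran from -3.22 to -0.49 with any one library left out and was -1.23 without 8-AG replicate 1. Fcer1a (ENSRNOG00000009177), the alpha chain, stood at 2.31, 2.67 and 0.442 CPM in young, 2.65, 2.04 and 7.32 CPM in aged, and 7.70, 0.278 and 0.351 CPM in 8-AG libraries. Its highest levels were in aged replicate 3 and 8-AG replicate 1, where the beta chain was at its lowest. Its log2 fold change was 1.14 (SE 0.79) for aged against young, and 0.39 to 1.53 with any one library left out. For 8-AG against aged it was -0.45 (SE 1.40), a value that became -3.66 without 8-AG replicate 1 and 0.31 without aged replicate 3, and that also turned positive without 8-AG replicate 2 or 3.

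Kit (ENSRNOG00000002227) was well covered, with 773 to 6018 counts a library. It stood at 118, 98.5 and 127 CPM in young, 107, 139 and 40.2 CPM in aged, and 23.6, 121 and 89.3 CPM in 8-AG libraries. Aged replicate 3 and 8-AG replicate 1 were low and the other 7 libraries lay between 89.3 and 139 CPM. The log2 fold change was -0.26 (SE 0.44) for aged against young, or 0.11 without aged replicate 3. For 8-AG against aged it was -0.29 (SE 0.69), or 0.13 without 8-AG replicate 1 and 0.09 without aged replicate 2. Hdc (ENSRNOG00000010262) stood at 0.167, 0.189 and 0.421 CPM in young, 0.452, 0.502 and 0.504 CPM in aged, and 0.0917, 0.306 and 0.548 CPM in 8-AG libraries, on 3 to 25 counts a library, and it too passed the limit on low counts in aged against young through the aged group. Every aged library was above every young one, and the 8-AG libraries spanned both groups. Its log2 fold change was 0.88 (SE 0.49) for aged against young and -0.60 (SE 0.66) for 8-AG against aged, or -0.19 without 8-AG replicate 1.

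**Figure D2:**
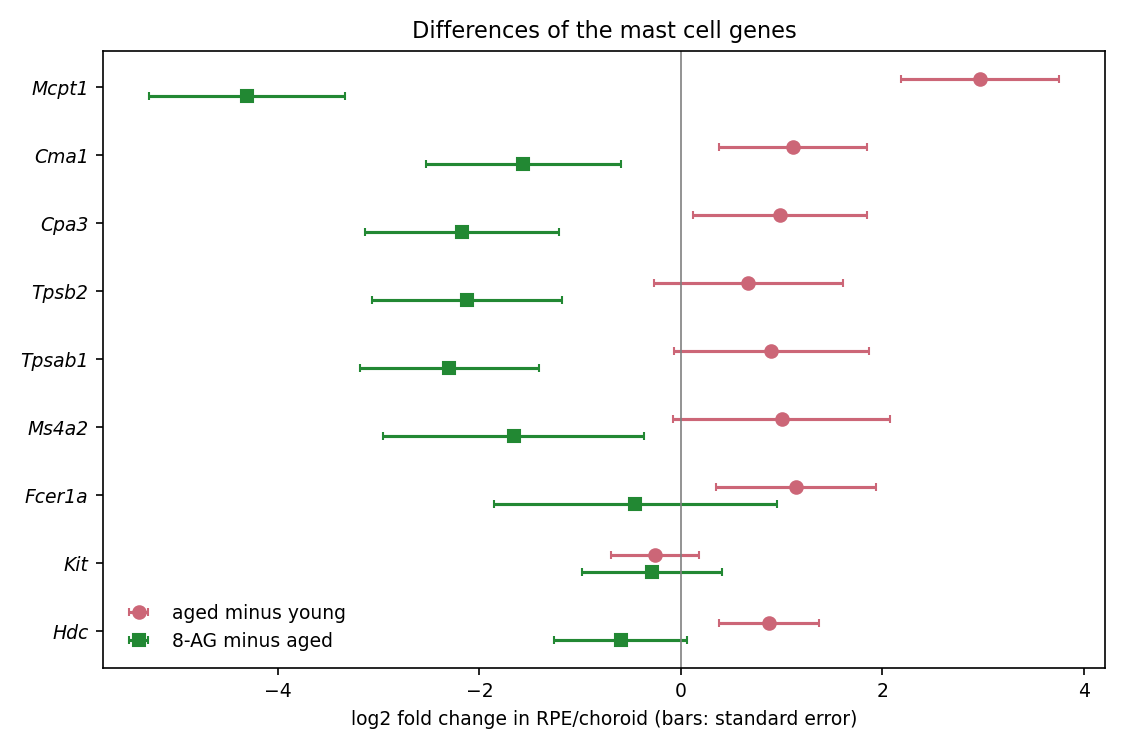
Log2 fold change of each of the 9 members in RPE/choroid with its standard error, for aged minus young (circles) and 8-AG minus aged (squares), which share the aged libraries. Mcpt1 lies furthest from 0 in both (2.97 and -4.31), and both values of Kit lie within 1 standard error of 0.

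In aged against young RPE/choroid, 8 of the 9 members that passed the limit on low counts had a higher fitted level and 1 (Kit) a lower one. The median log2 fold change was 0.98, beside 0.02 over all 16047 genes tested. A gene was called where it differed by more than 1.5-fold with an unadjusted P under 0.05. One member, Mcpt1, was called higher and none lower, where 0.717% of all genes tested were called higher and 0.636% lower. Mcpt1 and Hdc had every aged library above every young one, as had 2.89% of all genes. In 8-AG against aged RPE/choroid, 9 of 9 members had a lower fitted level, with a median of -1.66 beside 0.01 over 16257 genes. It was 8 of 9 without 8-AG replicate 1 or aged replicate 2, where Kit was above 0. It was also 8 of 9 without aged replicate 3 or 8-AG replicate 2 or 3, where Fcer1a was above 0. Mcpt1 and Tpsab1 were called lower and none higher, where 0.418% of all genes were called lower and 1.24% higher, and Mcpt1 alone had every 8-AG library below every aged one, as had 1.91% of genes. The call for Tpsab1 was lost without any one of 8-AG replicates 1, 2 and 3 or aged replicates 1 and 2, with the replicate block, and with libraries of one label number summed. Because the members were selected on these libraries, the counts describe the list and nothing is read from them. With adjusted P, edgeR called 0 of 16047 genes (0%) in the first comparison and 0 of 16257 (0%) in the second, where 341 and 274 genes had an unadjusted P under 0.05. DESeq2 called 34 and 41 genes at an adjusted P under 0.05, and Mcpt1 was the 1 member among the 41.

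The proteases other than Mcpt1 varied together with the beta chain. On log2(CPM + 1) over the 9 RPE/choroid libraries, the 10 pairs among Cma1, Cpa3, Tpsb2, Tpsab1 and Ms4a2 had Pearson's r of 0.80 to 0.96, pooling all 3 groups. Mcpt1 had r of 0.43 to 0.60 with these 5 genes. It was high in aged replicate 3, where the other proteases were low. Kit had r of 0.12 to 0.62 and Fcer1a r of -0.25 to 0.33 with the same 5 genes. These values are descriptions over libraries that also differed in depth and tissue content.

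Kit was lowest in the libraries where melanocyte, fibroblast and endothelial genes were lowest. The melanocyte list (Tyr, Tyrp1, Pmel, Mlana, Sox10 and Ednrb, 6 of 7 named, none at 0) summed to 12719 to 15468 CPM in young, 6374 to 16692 CPM in aged and 764 to 17889 CPM in 8-AG libraries, and the lowest sums were those of aged replicate 3 and 8-AG replicate 1. The fibroblast list (4241 and 1078 CPM) and the endothelial list (3065 and 585.8 CPM) were lowest in the same libraries, so the order is not particular to melanocyte genes. Pmel (mean 6925 CPM) and Tyrp1 (mean 4058 CPM) were the highest genes of the melanocyte list. The paper names both, and Tyr, among mRNAs specific to RPE, so the list does not tell melanocytes from RPE. Fcer1a was low where rod genes were low. The rod list (8 of 9 named, Gnat1 highest, Nr2e3 lowest, none at 0) summed to 196 to 569 CPM in young replicate 3, aged replicate 2 and 8-AG replicates 2 and 3, where Fcer1a was at 0.278 to 2.04 CPM, and to 3090 CPM or more in the other 5 libraries, where Fcer1a was at 2.31 to 7.70 CPM. The RPE list had 7 of 7 genes named (Ttr highest, Lrat lowest). It was highest, as was Fcer1a, in aged replicate 3 (4053 CPM) and 8-AG replicate 1 (5349 CPM). The order is not particular to rod genes. The RPE list held 2446 and 2361 CPM in 8-AG replicates 2 and 3, where Fcer1a was lowest, against 1841 CPM in aged replicate 1. Rod genes were higher in young replicate 2 (6332 CPM) than in aged replicate 3 (5217 CPM), with Fcer1a at 2.67 and 7.32 CPM. The proteases followed neither the melanocyte nor the rod list. The 3 libraries with most protease RNA were young replicate 2 (6332 CPM of rod genes, 13255 CPM of melanocyte genes), aged replicate 1 (3090 and 14956 CPM) and aged replicate 2 (196 and 16692 CPM). The striated muscle list (4 of 6 named, Acta1 highest, Mb lowest, none at 0) summed to 8.86 to 2888 CPM in young, 14.9 to 1763 CPM in aged and 35.9 to 28841 CPM in 8-AG libraries. It was high in young replicate 2 and aged replicate 1, and also in 8-AG replicates 1 and 2, where protease RNA was low. Among the 8-AG libraries, replicates 2 and 3 held 14910 and 17889 CPM of melanocyte genes and 9481 and 8005 CPM of fibroblast genes, within or above the range of the young libraries, with 7.51 and 2.15 CPM of the proteases. Endothelial genes (6 of 7 named) summed to 5959 and 3579 CPM there, the second below the 5198 to 6779 CPM of the young libraries and within the 3065 to 4522 CPM of the aged ones. The macrophage list (8 of 8 named, Lyz2 highest, Cd163 lowest, none at 0) summed to 2168 to 2984 CPM in young, 2405 to 4294 CPM in aged and 445 to 3428 CPM in 8-AG libraries. The part of these cell types in the members' levels was not tested.

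**Figure D3:**
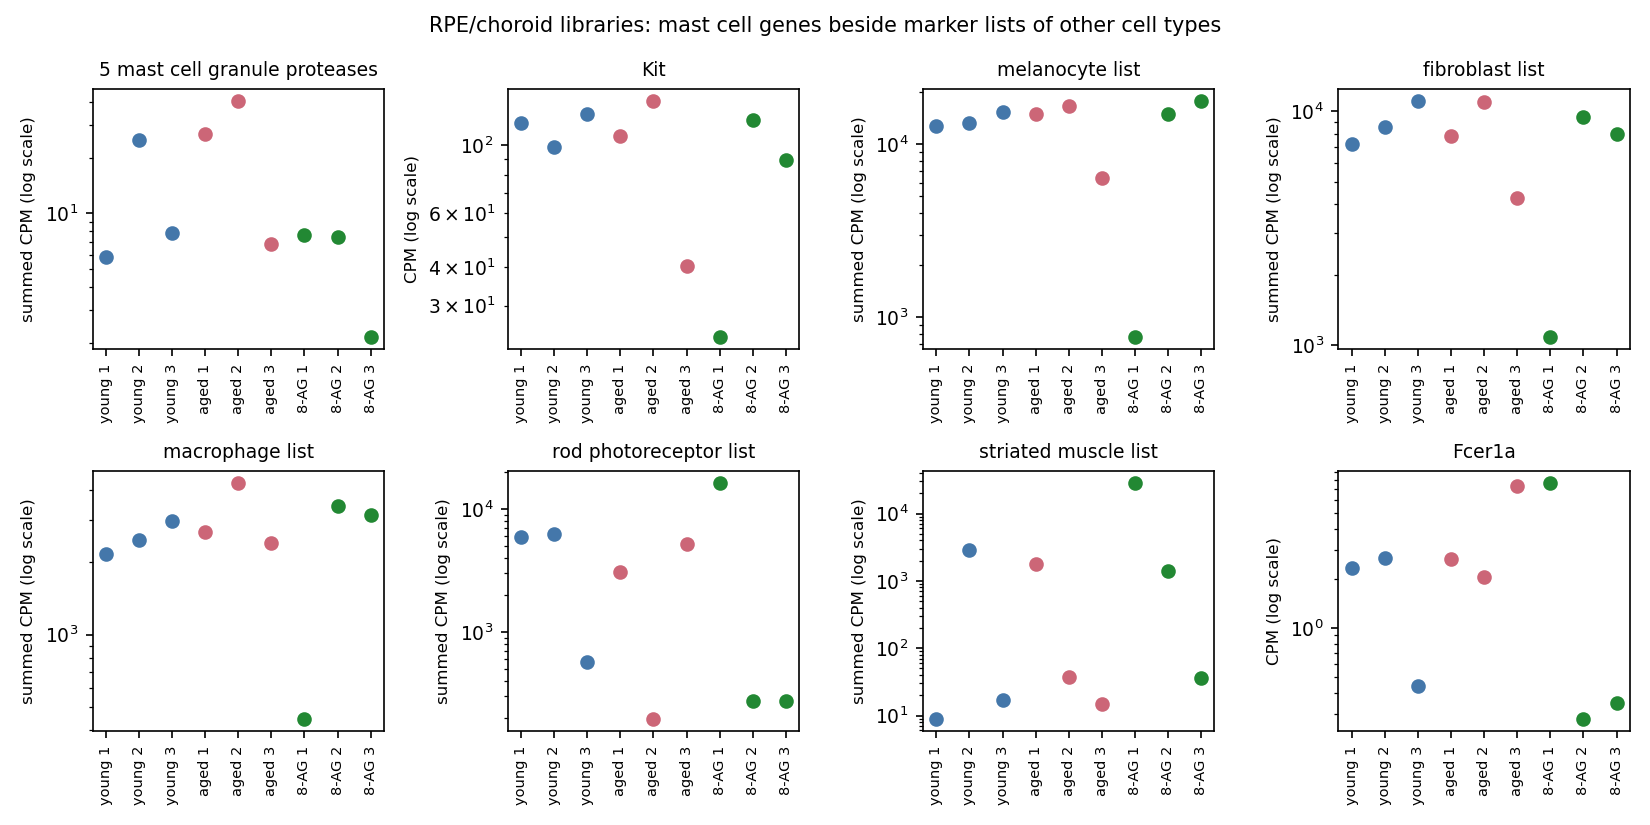
Summed level of the 5 granule proteases, the levels of Kit and Fcer1a, and the summed levels of 5 marker lists in each of the 9 RPE/choroid libraries, in CPM on log axes. Kit is lowest in aged replicate 3 and 8-AG replicate 1, as are the melanocyte and fibroblast lists, and the protease sum is highest in aged replicate 2 (40.5 CPM).

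The gene most like the members in RPE/choroid was a chymase gene outside the list. Among 14588 named genes with a mean of at least 1 CPM, Mcpt1l1 had the highest Pearson's r with the members' mean log2(CPM + 1), 0.93 over 9 libraries (Spearman's rho 0.78). It stood at 0.468, 2.54 and 1.32 CPM in young, 2.61, 4.67 and 0.537 CPM in aged, and 1.498, 0.723 and 0.351 CPM in 8-AG libraries. Like the other proteases and unlike Mcpt1, it was low in aged replicate 3. The next 9 were LOC294154, Lrfn4, Dnajb9, Cdyl, Ubl3, AABR07017999.1, Irx2, Orai1 and Mctp2, with r from 0.91 for LOC294154 to 0.84 for Mctp2. Orai1, the pore of the calcium entry channel that mast cells open on degranulation, stood at 20.2 to 43.0 CPM with r = 0.84. Taking each group's mean off first left 1 of these 10 genes in the first 10, and Spearman's rho left 3.

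In neural retina the granule proteases were at or near 0. The authors' table lists Mcpt2, Cma1, Cpa3 and Tpsab1 at 0 in 9 of 9 libraries. Tpsb2 was listed above 0 in 1 library, 8-AG replicate 2, at 0.244 on 3 counts. Ms4a2 was listed above 0 in aged replicate 2, at 0.0638 on 1 count, and Mcpt1 in aged replicate 3, at 0.0692, a value that belongs to the identifier the RPE/choroid tables name Mcpt1l1. At the depth of these libraries a count of 0 allows a level of up to 0.191 to 0.244 CPM, counting error only. Hdc was listed at 0, 0.150 and 0 in young, 0, 0.128 and 0.277 in aged, and 0.154, 0 and 0 in 8-AG libraries, on 4 counts or fewer. The granule proteases, Ms4a2 and Hdc were thus at 0 or on 4 counts or fewer in every retina library.

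Fcer1a and Kit were measured in every retina library. Fcer1a stood at 5.86, 6.30 and 7.48 in young, 9.55, 10.3 and 8.24 in aged, and 5.995, 12.0 and 11.1 in 8-AG libraries (authors' TMM-normalized level). Every aged library was above every young one, and the 8-AG libraries spanned both groups. The log2 fold change was 0.52 (SE 0.15) for aged against young and 0.05 (SE 0.24) for 8-AG against aged. The second turned to -0.13 without 8-AG replicate 2, and was also below 0 without 8-AG replicate 3 or aged replicate 3. Kit, which certain amacrine cells of the retina also carry, stood at 25.8, 24.3 and 30.7 in young, 28.8, 36.0 and 32.1 in aged, and 23.8, 27.0 and 24.5 in 8-AG libraries. The young and aged libraries overlapped, and every 8-AG library was below every aged one, as for 4.05% of all genes. Its log2 fold change was 0.27 (SE 0.11) for aged against young and -0.37 (SE 0.11) for 8-AG against aged. In aged against young, 1 of the 2 (Fcer1a) had an adjusted P under 0.05, as had 14.5% of all genes, and it kept this in 5 of 12 alternatives. Every aged library was above every young one for Fcer1a, as was the case for 17.4% of all genes. Neither gene reached 1.5-fold, so 0 of the 2 members that passed the limit on low counts were called, where 6.45% of 14588 genes were called higher and 2.39% lower in aged retina, and 0.526% of 14631 genes higher and 0.431% lower in 8-AG retina. As the members were selected on these libraries, the counts and adjusted P describe the list and nothing is read from them. Marker lists also differed with age in retina. The rod list summed to 27784 to 30822 CPM in young, 17776 to 19432 CPM in aged and 18630 to 23535 CPM in 8-AG retina. All 8 of its genes had a lower fitted level in aged than in young retina, and 5 were called. The sum over 6 lens genes reached 5029 CPM in young, 18.9 CPM in aged and 1346 CPM in 8-AG retina. The part of these differences in the levels of Fcer1a and Kit was not tested.

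**Figure D4:**
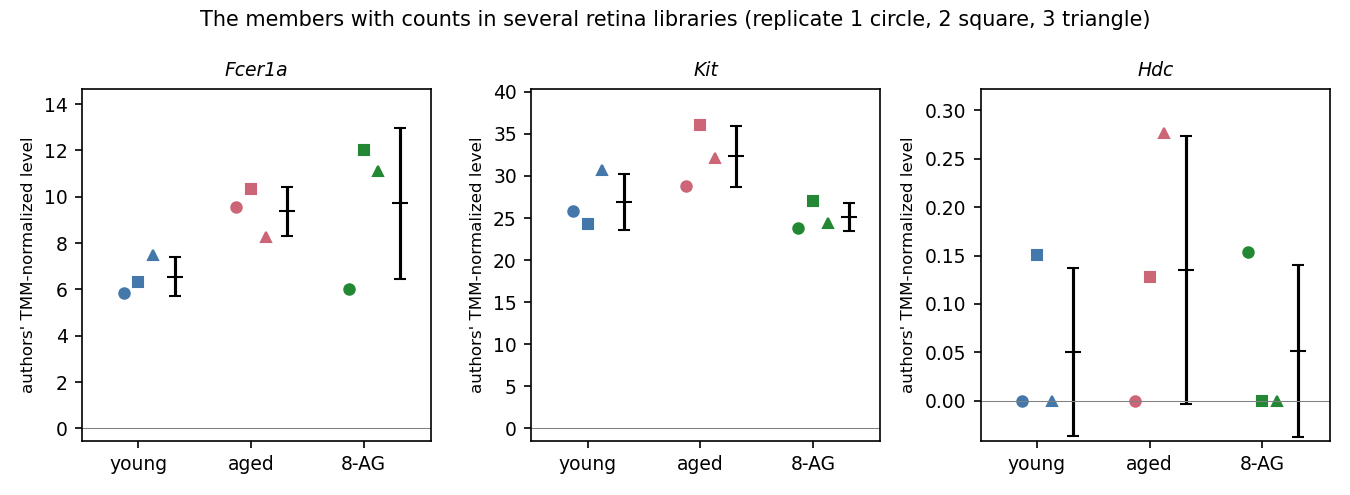
Levels of Fcer1a, Kit and Hdc in neural retina, as the authors' TMM-normalized values, in 3 young, 3 aged and 3 8-AG libraries (points, with marker shape for the replicate) and mean with SD (black). Fcer1a is above 8 in the 3 aged libraries and below it in the 3 young ones, and Hdc stays at or below 0.277.

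The other genes of mast cell biology, a list of 69 that leaves out the members, were tested gene by gene. The list was drawn up with earlier results of these data known and is no independent check. In aged against young retina, 34 of the 45 named genes passed the limit on low counts, and 13 were called higher and 0 lower, where 6.45% of all genes were called higher and 2.39% lower. The median log2 fold change of the 34 was 0.44, beside 0.0019 over all genes. At an adjusted P under 0.05, 12 genes were higher and 2 lower (edgeR, 14.5% of all genes in either direction). These 14 became 7 without young replicate 3 and 9 without young replicate 1, young replicate 2 or aged replicate 2. Of the 12 Fc receptor signalling genes, 8 were called higher, 6 of them with an adjusted P under 0.05. Fcer1g, the gamma chain, rose from 1.69 ± 0.76 to 6.96 ± 3.25 CPM (SD, n = 3), a log2 fold change of 2.06 (SE 0.44, adjusted P = 0.0206). The kinase Lyn, which phosphorylates the receptor, rose by 1.58 (SE 0.17, adjusted P = 0.000466), and Inpp5d, the phosphatase SHIP1 that restrains the signal, by 1.65 (SE 0.25, adjusted P = 0.00238). The adaptors Lat2 and Lcp2 rose by 1.92 (SE 0.41, adjusted P = 0.0131) and 1.46 (SE 0.32, adjusted P = 0.0143), and the phospholipase Plcg2 by 1.48 (SE 0.28, adjusted P = 0.00725). The kinases Btk and Syk were called by fold and unadjusted P with adjusted P of 0.0563 and 0.138. Neither was called by DESeq2, and the call for Syk was also lost with the replicate block and without young replicate 1 or 2 or aged replicate 1 or 2. Lat2 (3 to 5 counts a young library) and Btk (2 to 6) passed the limit on low counts through the aged group, so they had to differ to be tested. The remaining 4, Lat, Plcg1, Gab2 and Fyn, had log2 fold changes of 0.38, 0.10, -0.03 and -0.16.

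Outside the Fc signalling genes, the cytokine receptor chain Csf2rb rose in aged retina from 0.486 ± 0.051 to 3.23 ± 1.19 CPM, by 2.72 on the log2 scale (SE 0.36, adjusted P = 0.00116), and it too passed the limit on low counts through the aged group (6 to 8 counts a young library). Srgn, the proteoglycan core that packs granule contents, rose by 1.17 (SE 0.32, adjusted P = 0.0380), and Vamp8, a protein of granule fusion, had a log2 fold change of 0.75 (SE 0.23, adjusted P = 0.0574). The eicosanoid genes Ptgs1 (COX-1) and Alox5ap rose by 1.36 (SE 0.37, adjusted P = 0.0358) and 1.02 (SE 0.29, adjusted P = 0.0480). With 1 library left out, the values ran from 0.71 to 1.39 for Srgn, 0.94 to 1.55 for Ptgs1 and 0.59 to 1.23 for Alox5ap. The 3 genes were called by fold and unadjusted P in 12 of 12 alternatives. An adjusted P under 0.05 was kept in 8, 7 and 7 of the 12. With at least 10 counts required in every library, 10 genes of the list were called. The macrophage list, whose cells carry most of these genes, moved the same way. It summed to 34.1 to 35.7 CPM in young, 106.6 to 180.7 CPM in aged and 124.5 to 140.8 CPM in 8-AG retina, and 5 of its 6 genes that passed were called higher in aged retina, beside the 6.45% of all genes. The part of macrophages in these changes was not tested, and the mast cell proteases in the same young and aged libraries were at 0 or on 1 count. The Kit ligand gene Kitlg had a log2 fold change of 0.21 (SE 0.09, adjusted P = 0.138).

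In 8-AG against aged retina, 0 of the 35 genes of this list that passed were called, where 0.526% of all genes were called higher and 0.431% lower, and their median log2 fold change was -0.09 beside -0.0031 over all genes. Among the Fc receptor signalling genes the values ran from -0.66 (SE 0.39) for Lat to 0.17 (SE 0.32) for Btk. Over all 14631 genes, edgeR called 3 and DESeq2 18 at an adjusted P under 0.05. With the replicate block, edgeR called 0 at that threshold. Without 8-AG replicate 1 or without 8-AG replicate 2, 1 gene of the list was called.

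**Figure D5:**
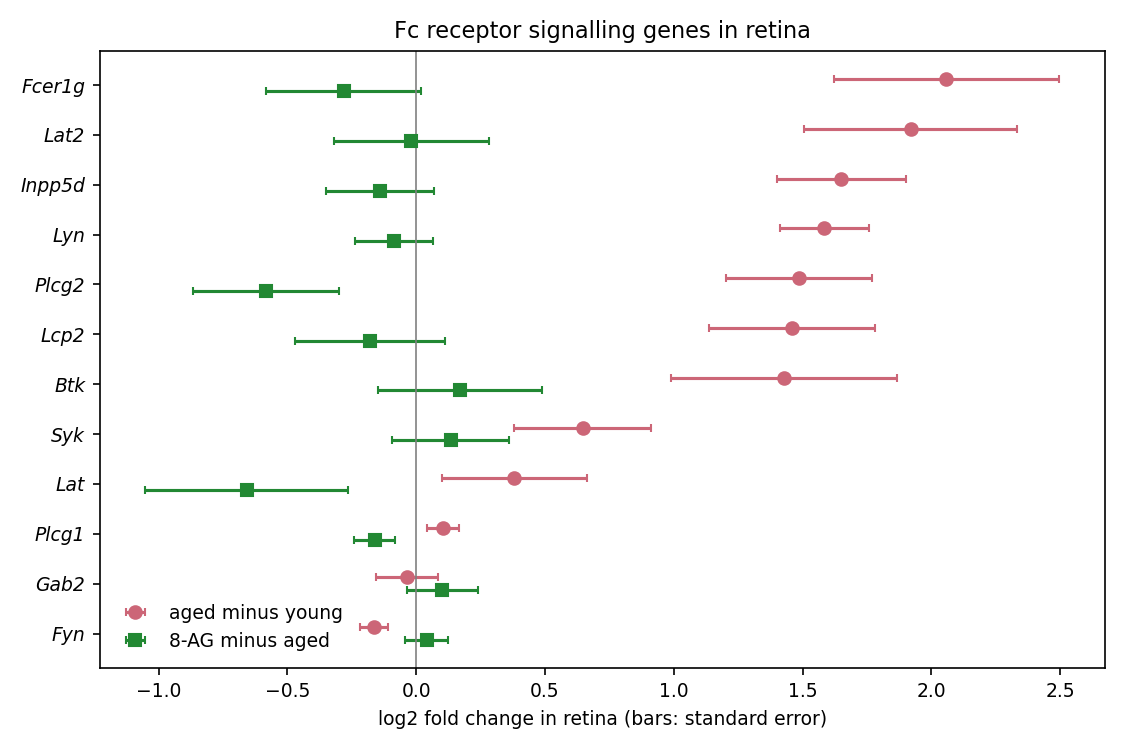
Log2 fold change with standard error of the 12 Fc receptor signalling genes in retina, for aged minus young (circles) and 8-AG minus aged (squares). From Fcer1g (2.06) to Syk (0.65), 8 genes were called higher in aged retina by fold and unadjusted P, 6 of them with an adjusted P under 0.05, and in 8-AG against aged none of the 12 was called.

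In RPE/choroid the same list of 69 had 44 genes named and passing the limit on low counts. In aged against young, 2 were called higher and 0 lower, where 0.717% of all genes were called higher and 0.636% lower, and the median log2 fold change was 0.10 beside 0.02 over all genes. Both encode proteases and stood in the basophil group of the list. Mcpt8l2 stood at 0.535, 1.19 and 1.07 CPM in young and 3.91, 5.73 and 3.22 CPM in aged libraries, a log2 fold change of 2.19 (SE 0.43, unadjusted P = 0.00214, adjusted P = 0.99998). Mcpt8 stood at 0.234, 0.675 and 0.673 CPM in young and 1.81, 1.62 and 0.940 CPM in aged libraries, a log2 fold change of 1.45 (SE 0.53, unadjusted P = 0.0333, adjusted P = 0.99998). Every aged library was above every young one for both genes, as for 2.89% of all genes, and for 2 further genes of the list that were not called, Slc18a2 and Stxbp2. With edgeR neither passed an adjusted P of 0.05, while DESeq2 called Mcpt8l2 at that threshold. Mcpt8 was no longer called without young replicate 1 or 2 or aged replicate 1 or 2, with the replicate block, or with libraries of one label number summed, and neither gene was called in one fit over 3 groups. These genes are close copies too, so their reads may have been divided between them. None of the 12 Fc receptor signalling genes was called, and their values ran from -0.45 (SE 0.35) for Gab2 to 0.40 (SE 0.28) for Lat. Mcpt1l1 had a log2 fold change of 0.85 (SE 0.90) and Kitlg of -0.22 (SE 0.34).

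In 8-AG against aged RPE/choroid, 0 of the 44 genes were called higher and 1 lower, where 1.24% of all genes were called higher and 0.418% lower, and the median was -0.21 beside 0.01 over all genes. The gene called was Il1rl1, the receptor for IL-33 on mast cells. It stood at 1.39, 3.66 and 1.98 CPM in aged and 0.611, 1.11 and 1.01 CPM in 8-AG libraries. Every 8-AG library was below every aged one, as for 1.91% of all genes. Its log2 fold change was -1.35 (SE 0.52, unadjusted P = 0.0428, adjusted P = 0.99997), and the call was lost without any one of aged replicates 2 and 3 or 8-AG replicates 1, 2 and 3. Mcpt8l2 stood at 0, 2.25 and 1.56 CPM in the 8-AG libraries, the 0 being that of replicate 1. Its log2 fold change was -1.75 (SE 1.38, adjusted P = 0.99997). Mcpt8l2 and Il3ra, which were not called, also had every 8-AG library below every aged one. Mcpt1l1 had a log2 fold change of -1.56 (SE 0.94). None of the 12 Fc receptor signalling genes was called. With every library, 12 of 12 had values below 0, from -0.77 (SE 0.38) for Fyn to -0.02 (SE 0.51) for Gab2, and without 8-AG replicate 1, 9 of 12 had values above 0, from -0.55 (SE 0.36) for Fyn to 0.48 (SE 0.34) for Syk. Their sum was 122.9 CPM in 8-AG replicate 1 against 432 to 665 CPM in the other RPE/choroid libraries. Kitlg had a log2 fold change of -0.28 (SE 0.75) and stood at 56.8 CPM in 8-AG replicate 1.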

How the data were processed

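Retina values were RSEM expected counts per gene as deposited by the authors, rounded to whole numbers for the test, and a table of TMM-normalized signal, also deposited by the authors, which gave symbols and retina levels. RPE/choroid values were raw counts per gene as deposited by the authors. Per the labels' processing notes the build was Rnor_6.0 and the tools were Bowtie2 2.1.0, RSEM 1.2.15 and edgeR, with no role or order given. The RPE/choroid libraries were enriched for full-length transcripts because RNA was scarce. Poly-A RNA was sequenced, although the labels give total RNA for the 3 8-AG retina libraries. Deposited fold changes and P values of the authors' own comparisons were not used. Retina identifiers took symbols from the RPE/choroid tables, and 93.1% of 10459 identifiers also named by matching values had the same name. No sample column was left unmatched (0).

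The members and lists were chosen with earlier results of these data known. Here, each pair of groups (6 libraries) was fitted with edgeR 4.0.16 in R 4.3.3 (filterByExpr, TMM, robust quasi-likelihood F-test) with Benjamini-Hochberg adjustment over all genes tested, and the fits were tested on simulated data. DESeq2 1.42.0 was an alternative. RPE/choroid CPM used TMM factors over 9 libraries. The tissues were not tested against each other. Named are the members, called genes of the mast cell list (at most 12 per comparison by P, exceeded by 1 in aged retina), its proteases, Fc receptor signalling genes and Kitlg, the 10 genes most like the members, and the highest and lowest gene of a marker list. The melanocyte genes, Slc18a2, Stxbp2 and Il3ra were named after their values were seen. One gene of the rod marker list is not reported here and was left out of its sums.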

Additional observations from a re-analysis of the deposited data

How the results depend on the processing

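Limits: with 3 libraries per group, most members overlapped between groups in RPE/choroid, Mcpt1, Ms4a2 and Hdc rest on few counts, and the libraries differed in tissue content. The alternatives were chosen in advance, except for summing libraries that share a label number and leaving out Kit and Fcer1a, which were chosen after seeing the data.

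The summed level of the members on the log2 scale was dominated by Kit. For aged against young it was 0.32 in retina and -0.22 in RPE/choroid, and without Kit and Hdc it was 0.53 and 1.07. For 8-AG against aged it was -0.27 in retina and -0.53 in RPE/choroid, and without Kit and Hdc -0.00478 and -1.93. Without Kit and Fcer1a the RPE/choroid values were 0.89 and -1.86, and retina gave no value because several sums were 0. With 1 library left out the sum ran from 0.24 to 0.42 and from -0.35 to -0.16 in retina, and from -0.58 to 0.30 (positive without aged replicate 3) and from -1.04 to -0.03 in RPE/choroid.

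Genes called numbered 1289 and 140 in retina and 217 and 269 in RPE/choroid (aged against young, then 8-AG against aged). Without a filter on low counts the last 3 became 318, 364 and 503. With at least 10 counts in every library, 8-AG retina gave 92. One fit over 3 groups gave 131 and 465 in RPE/choroid, DESeq2 gave 560 for 8-AG RPE/choroid, and libraries summed by label number gave 85. With 1 library left out the counts ran from 1098 to 1366 and 142 to 255 in retina, and from 213 to 414 and 86 to 733 in RPE/choroid. Counts over 1.5 times from the first came without aged replicate 2 or 8-AG replicate 2 or 3 in retina (255, 219 and 226), without aged replicate 1 or 2 in aged RPE/choroid (328 and 414), and without aged replicate 1 or 2 or 8-AG replicate 1 or 2 in 8-AG RPE/choroid (97, 86, 554 and 733).

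Of the other mast cell genes, 13, 0, 2 and 1 were called in the same order. Those 2 became 1 with at least 10 counts in every library, 0 in one fit over 3 groups, 1 with libraries summed by label number, and 1 to 5 with 1 library left out (5 without aged replicate 2). That 1 became 0 without a filter, 2 in one fit over 3 groups, and 0 without aged replicate 2 or 8-AG replicate 3, with a range of 0 to 1. In 8-AG retina the range was 0 to 1.

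Same-numbered libraries did not deviate together in every pair: correlations ran from -0.62 to 0.27 in aged against young RPE/choroid and from -0.22 to 0.71 in 8-AG against aged RPE/choroid, and in 8-AG against aged retina they were 0.06 to 0.12, with 6 of 6 libraries most like their own number. With the replicate block, aged against young RPE/choroid had 138 genes called and 1 of the other mast cell genes.

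Of the 10 genes most like the members, 3 stayed among the first 10 with Spearman's rho, 1 with each group's mean taken off first, and 3 to 8 with 1 library left out. Mcpt1 kept its direction and its call in the 12 of 12 alternatives that tested it in both RPE/choroid comparisons, with log2 fold changes of 2.50 to 4.07 and -5.31 to -3.81 when 1 library was left out. It passed the limit on low counts through the aged group and was not tested with at least 10 counts in every library. Mcpt1 was selected on these same libraries, so a call kept when they are fitted again is a description and no independent support. Of the other members, Tpsab1 was called in 6 of 13 alternatives for 8-AG against aged RPE/choroid, Cpa3 and Tpsb2 each in 3 of 13 and Fcer1a in 1 of 13, Hdc in 1 of 12 for aged against young RPE/choroid, and Fcer1a in 2 of 12 for aged against young retina. The cause of the other shifts was not tested.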
